A study of Mus musculus with 6 samples.

Results

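The genes described here are 10 grouped as fatty acid and triglyceride synthesis genes: Acly, Acaca, Fasn, Elovl6, Scd1, Scd2, Fads1, Fads2, Dgat2 and Mfsd2a. The last of them encodes a lipid transporter, not a synthesis enzyme. They were chosen by name, with the values of these same arrays already known, out of 16390 named genes on the array. Each is represented by the only probe that carries its symbol (Mfsd2a under the older symbol Mfsd2), read as log2 of the deposited intensity. All samples came from CH12F3-2A, a single mouse B cell lymphoma line that switches from IgM to IgA when stimulated. The 3 siControl samples received a control siRNA and the 3 siSpt6 samples an siRNA directed at Spt6, a histone chaperone that travels with RNA polymerase II and is encoded by Supt6. In both groups siRNA was delivered by electroporation, the cells were cultured for 24 h, and CD40L, IL4 and TGFb (together called CIT) were then present for another 24 h before RNA was taken. The labels describe no sample without CIT. For 2-mercaptoethanol in the medium they give the same figure in micromolar for siControl and in millimolar for siSpt6. They do not say whether replicates were separate cultures, so the p-values below reflect only how far these samples scatter, and that scatter may be technical.

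Fatty acids are built in the cytosol from acetyl-CoA. ATP citrate lyase (Acly) makes acetyl-CoA from citrate, acetyl-CoA carboxylase (Acaca) turns it into malonyl-CoA, and fatty acid synthase (Fasn) joins these units into palmitate, using NADPH. Elongases such as Elovl6 lengthen the chain, the stearoyl-CoA desaturases Scd1 and Scd2 make it monounsaturated, and Fads1 and Fads2 desaturate polyunsaturated chains. Dgat2 adds the last acyl chain of triglyceride, and Mfsd2a brings lysophosphatidylcholine into cells. Most of the synthesis genes are textbook targets of the transcription factors SREBP1 and SREBP2, which bind sterol elements near the start site together with NF-Y, at CCAAT boxes, and Sp1, at GC boxes. In activated B cells such lipid is used for membrane growth.

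The promoters of Fasn, Acly and Mfsd2a are shown because they hold matches to these partner motifs and cover the synthase, the enzyme that supplies it and the gene with the largest difference. Each is the 250 bases before the start site, read 5′ to 3′ along the gene from RefSeq on GRCm38.p6, with matches on either strand in capitals, either to the letters CCAAT, where NF-Y binds, or to the GC box, GGGCGG. The positions are chr11:120824548-120824797 on the minus strand for Fasn, chr11:100528001-100528250 on the minus strand for Acly and chr4:122961189-122961438 on the minus strand for Mfsd2a.

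Fasn: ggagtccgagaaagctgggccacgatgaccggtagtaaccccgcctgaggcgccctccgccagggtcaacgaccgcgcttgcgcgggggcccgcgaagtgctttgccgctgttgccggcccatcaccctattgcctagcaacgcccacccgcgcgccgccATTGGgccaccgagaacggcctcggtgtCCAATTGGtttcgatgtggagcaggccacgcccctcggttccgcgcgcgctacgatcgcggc
Acly: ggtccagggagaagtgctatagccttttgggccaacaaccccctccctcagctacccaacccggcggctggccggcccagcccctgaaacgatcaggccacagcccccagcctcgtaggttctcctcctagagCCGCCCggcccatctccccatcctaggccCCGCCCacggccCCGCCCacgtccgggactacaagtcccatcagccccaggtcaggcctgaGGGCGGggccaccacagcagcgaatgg
Mfsd2a: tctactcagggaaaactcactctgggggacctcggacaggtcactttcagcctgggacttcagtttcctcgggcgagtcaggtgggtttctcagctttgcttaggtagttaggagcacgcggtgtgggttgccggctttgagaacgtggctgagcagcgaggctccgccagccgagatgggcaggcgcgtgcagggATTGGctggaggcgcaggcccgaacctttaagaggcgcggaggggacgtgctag

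RefSeq windows of 300 bases (250 before and 50 after the start) were at hand for 6 of the 10 genes: Acaca, Acly, Elovl6, Fads2, Fasn and Mfsd2a. An NF-Y motif was found in 3 of them, Fasn with 3 matches, 2 of which overlap, Mfsd2a with 1 and Acly with 1 that lies after the start and outside the stretch shown. The same motif occurs in 37.4% of 32544 promoter windows. GC boxes were found in Acly (4 matches) and Fads2 (1 match), against 35.9% of all windows. The core of the sterol element, searched as TCACNCCAC, was in 0 of the 6 windows and 1.24% of all, and the E-box CACGTG in 0 of the 6 and 7.17% of all. With shares this low, 6 windows are too few for an absence to say anything about these genes. These are matches of letters within a short window, not measured binding.

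The array check of the siRNA target comes before the lipid values. The probe for Supt6 was at 33.1, 32.1 and 32.1 with control siRNA and at 25.1, 21.8 and 28.1 with Spt6 siRNA, so the groups did not overlap, but its log2 difference of -0.38 (SE 0.13) missed the threshold (limma adjusted p = 0.0973, with 0.0491 after cyclic loess and 0.0382 after median centring). Between 21526 and 22372 of 23473 probes had a value on an array, and 3 arrays a group limit the precision. Of 15224 genes tested, 1469 fell and 1126 rose, where quantile normalization gave 1089 falls and 1322 rises. B cell markers were bright (7 had a probe, none below the array median; summed intensity 10399 to 12431 in siControl and 14134 to 15895 in siSpt6). Of these, Cd79b and Blk rose (log2 differences 0.55 and 0.72, limma adjusted p = 0.0391 and 0.0393) and Cd22 fell (-0.62, limma adjusted p = 0.0281). Pax5, the dimmest B cell marker, read 27.0 to 50.2, so its lowest array was below the array median. Macrophage markers summed to 242 to 284 and 274 to 356, T cell markers to 41.1 to 59.5 and 43.4 to 49.8, and hepatocyte markers to 104 to 252 and 148 to 199.5, with no member of these 3 lists past the threshold. Of 5 markers with a probe in each list, 3, 5 and 4 lay below the array median. Cd68 (164 to 271) and Fgb (90.5 to 225) made most of the macrophage and hepatocyte sums. In these bulk samples, fewer cells of a type and less RNA per cell cannot be told apart.

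All 9 of the 10 genes with enough values to test were lower in siSpt6, by log2 differences from -2.31 to -0.72 with a median of -1.18, beside -0.00 over all 15224 genes tested. The deposited array medians were nearly equal (29.97 to 29.9975), so an all-gene median near 0 was close to fixed in advance. It does not show that the other genes stayed level. At least 2-fold lower were 5 of the 9 genes, all with a call (of all genes, 2.13% by size alone and 1.91% with a call). On every one of the 9 probes the highest siSpt6 array lay below the lowest siControl array, a pattern found in 21.2% of all genes tested. The limma test (Benjamini-Hochberg adjusted p under 0.05 over all probes) called 8 of the 9 lower and 0 higher (9 and 0 at an unadjusted p under 0.05), where 9.65% of all genes were called lower and 7.40% higher. Since the genes were picked with this comparison in view, these counts describe them and nothing is read from them. Leaving out 1 array at a time gave between 6 and 9 calls: 6 without siControl replicate 1 or 2, and 9 without siSpt6 replicate 3. The plot of intensities by array shows all 10 genes in pathway order.

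**Figure D1:**
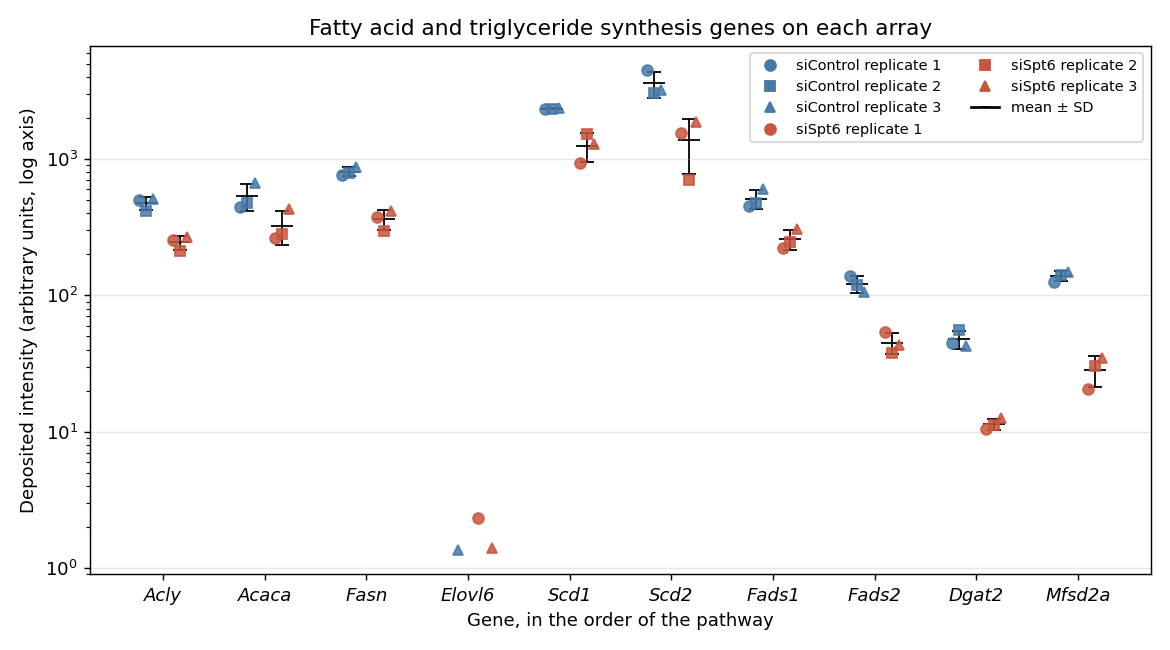
Deposited intensity (arbitrary units, log axis) of the 10 genes on each of 6 arrays, with siControl in blue, siSpt6 in red, a marker shape for each replicate number, and black bars for the mean ± SD where all 3 arrays have a value. In 9 genes all siSpt6 points lie below all siControl points, and Elovl6 has 3 points in all, each under 3 units.

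Acly, which supplies acetyl-CoA, read 498, 414 and 507 in siControl and 253, 213 and 268 in siSpt6. The highest siSpt6 array was thus well under the lowest siControl array, and the replicates of both groups were even (means 473 ± 51.4 and 245 ± 28.1, intensity ± SD, n = 3 each). The log2 difference was -0.95 (SE 0.15), which puts siSpt6 at 51.7% of the control level.

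Acaca, the carboxylase that commits carbon to fatty acids, read 449, 479 and 669 in siControl and 264, 280.3 and 432 in siSpt6. Replicate 3 was the brightest array of both groups, and the siSpt6 value there came close to the lowest siControl value without reaching it. The difference of -0.72 (SE 0.24) was the smallest of the 9. It was also the one that did not reach the threshold (limma adjusted p = 0.0901). Without siSpt6 replicate 3 it was -0.95 and did. It also passed in other settings, such as with a term for replicate number (limma adjusted p = 0.0207).

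Fasn, the synthase itself, read 759, 789.8 and 879 in siControl against 374, 296 and 414 in siSpt6. The lowest siControl array was thus far above the highest siSpt6 array. Mean intensity went from 809 ± 62.4 to 361 ± 59.9 (n = 3 each), a log2 difference of -1.18 (SE 0.16) or 44.3% of control. Compared within arrays, the ratio of Acaca to Fasn was higher in siSpt6 than in siControl by 0.45 on the log2 scale (SE 0.20), and the ratio of Acly to Fasn by 0.22 (SE 0.10). These ratios were not tested and rest on 3 arrays a group, so they do not settle an order of the 3 core enzymes.

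Elovl6, the elongase that takes palmitate to stearate, gave almost no signal. Its probe had a value on 3 arrays only, 1.35 on siControl replicate 3, 2.33 on siSpt6 replicate 1 and 1.39 on siSpt6 replicate 3, and was blank on the others. The array medians lay between 29.97 and 29.9975, so these values sit at the dim end, and the gene could not be tested.

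The stearoyl-CoA desaturases differed in how their replicates spread. Scd1 read 2336, 2334 and 2375 in siControl and 932, 1525 and 1292 in siSpt6, with siSpt6 replicate 1 the lowest. Its coefficient of variation was 0.990% over the siControl arrays and 23.9% over the siSpt6 arrays. Scd2, the form that predominates outside liver and fat, read 4510.2, 3080.5 and 3231 in siControl and 1557, 700.3 and 1859 in siSpt6. Here siSpt6 replicate 2 was the lowest array, the one on which Scd1 was highest. The log2 differences were -0.94 (SE 0.19) for Scd1 and -1.49 (SE 0.37) for Scd2. Taken as a ratio within each array, Scd1 over Scd2 stood at 1.72 above its siControl mean on siSpt6 replicate 2, and at -0.14 and 0.07 on the other siSpt6 arrays (log2 units). The change of that ratio between groups was 0.55 (SE 0.61), less than its own error. Scd1 and Scd2 are close paralogs; the sources used here do not give where on the transcripts the probes lie, so how well they separate the 2 genes is unknown.

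Calls for this pair were lost in some fits with 1 array left out and with other scalings. Leaving out any 1 array also lowered the calls over all probes, from 3525 to between 2099 and 2522. A call lost that way therefore need not mean that it rested on that array. Scd1 missed the threshold without siControl replicate 1 or 2 (limma adjusted p = 0.0532 and 0.0523), though its log2 difference stayed at -0.94 in both fits. It also missed it after quantile or cyclic loess normalization. Scd2 missed it without any 1 of 4 arrays, siControl replicates 1, 2 and 3 and siSpt6 replicate 1, with limma adjusted p = 0.101, 0.0705, 0.0717 and 0.0627, and also after both normalizations and with limma's trend and robust options. Its log2 difference ranged from -1.77 to -1.06 when 1 array was left out, and both genes stayed lower in siSpt6 in all of these fits.

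The polyunsaturated desaturases varied less between siSpt6 replicates than Scd1 or Scd2. Fads1, the delta-5 desaturase, read 454, 479.8 and 608 in siControl and 222, 245 and 307 in siSpt6, with replicate 3 the brightest of each group. Fads2, the delta-6 desaturase, read 139, 119 and 105 against 53.5, 38.1 and 43.0, and on this probe replicate 1 was the brightest. Neither gene's groups came near to overlapping. Fads1 stood at 50.2% of control (log2 difference -0.996, SE 0.18) and Fads2 at 36.9% (-1.44, SE 0.17), and the ratio of Fads1 to Fads2 was higher in siSpt6 by 0.44 (SE 0.34), a gap little larger than its error.

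In the RefSeq gene order on mouse chromosome 19, Fads1, Fads2 and Fads3 follow one another, and so do Scd1, Scd4, Scd2 and Scd3. The other members of these clusters were dim and missed the threshold. Fads3 had a log2 difference of 0.14 (SE 0.31, limma adjusted p = 0.810), Scd3 of -0.50 (SE 0.38, limma adjusted p = 0.438) and Scd4 of -0.47 (SE 0.15, limma adjusted p = 0.0833). Scd4 read 34.2, 29.9 and 25.3 in siControl and 23.8, 20.5 and 19.7 in siSpt6, so its groups did not overlap.

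Dgat2 and Mfsd2a showed the largest differences of the set. Dgat2, which completes triglyceride, read 44.8, 55.7 and 42.2 in siControl and 10.4, 11.1 and 12.5 in siSpt6, with the tightest siSpt6 replicates of the 9 genes (coefficient of variation 9.41%). That is a log2 difference of -2.06 (SE 0.15), or 24.0% of control. Mfsd2a read 126, 142 and 148 against 20.4, 30.3 and 34.9, with a log2 difference of -2.31 (SE 0.21), or 20.1% of control. On both probes the groups were far apart beside the spread within either group. All siSpt6 values of Dgat2, and that of Mfsd2a on replicate 1, lay below the lowest array median of 29.97. No background correction is stated, so how far dim signal affects the size of these differences is unknown. Dgat1, the other enzyme of that last step and unrelated in sequence, read 61.1, 60.9 and 54.8 in siControl and 44.6, 45.5 and 53.8 in siSpt6, a difference of -0.30 (SE 0.13) that missed the threshold (limma adjusted p = 0.167).

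Ordered by size of the log2 difference, the 9 genes run Mfsd2a, Dgat2, Scd2, Fads2, Fasn, Fads1, Acly, Scd1 and Acaca. Neighbours in that order were 0.01 to 0.57 apart, between 0.05 and 1.43 times the standard error of the gap. By that measure no step between neighbours stands clear of its error. The measure treats the genes of a pair as independent, though they were read on the same arrays. Mfsd2a and Dgat2 at one end and Acaca at the other are separated by more than 1 log2 unit. Deviations within a group were partly shared by the genes: on siSpt6 replicate 3, 8 of the 9 genes lay above their siSpt6 mean (median 0.21 above, log2 units), and on siSpt6 replicate 2 only 2 of 9 did (median -0.18). The median difference over all genes also moved with these arrays, to -0.02 without siSpt6 replicate 3 and 0.03 without siSpt6 replicate 2. Whether the shared deviations are particular to the 9 genes was not tested. The median standard deviation of the 9 genes was 0.20 in siControl and 0.25 in siSpt6 (log2 units), beside 0.17 and 0.19 over all genes tested.

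**Figure D2:**
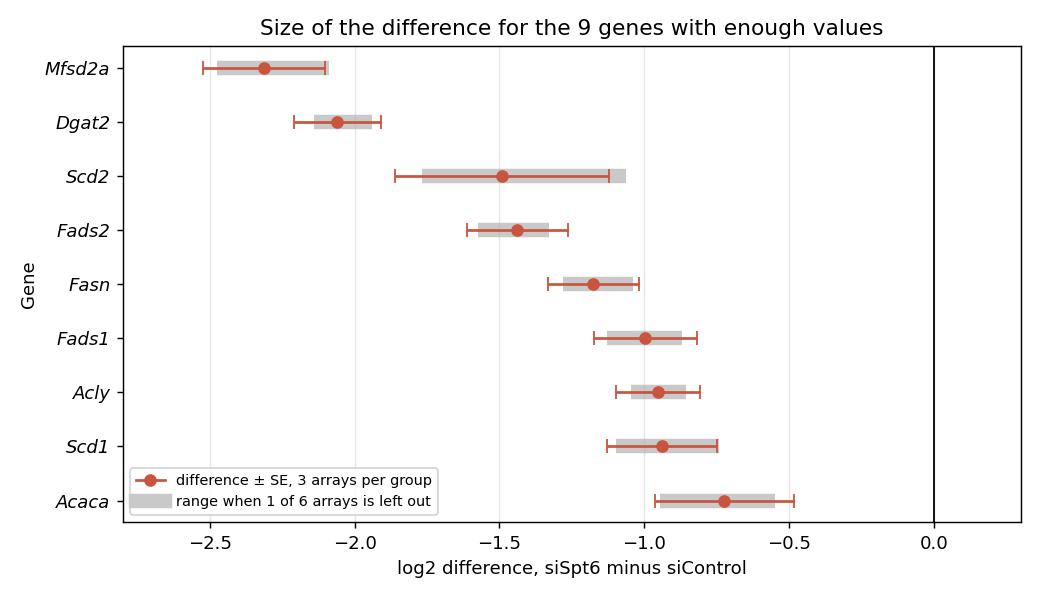
Log2 difference of siSpt6 minus siControl for the 9 testable genes, in order of size; points with bars are the difference ± SE over 3 arrays a group, and grey bars the range when 1 of the 6 arrays is left out. All points and ranges lie below 0, from Mfsd2a at -2.31 to Acaca at -0.72, and Scd2 has the widest bar.

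Other lipid genes were taken from 7 lists by function, 188 genes in all and none of the 10, of which 168 could be tested. Of these 27 fell and 9 rose (16.1% and 5.36%, where the shares of all genes tested were 9.65% and 7.40%), and their median log2 difference was -0.06 (0.003 after quantile normalization). The count of falls was 16 without siControl replicate 1 or siSpt6 replicate 2. These lists were also drawn up with earlier results of these data known.

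In the list of acetyl-CoA, synthase partners and NADPH supply, 4 of 16 fell (25% against 9.65% of all genes tested) and 1 rose (6.25% against 7.40%), with a median of 0.08. Slc25a1, the carrier that exports citrate from mitochondria for Acly, fell from 567 ± 46.1 to 353 ± 34.5 (intensity ± SD, n = 3 each; log2 difference -0.68, SE 0.13, limma adjusted p = 0.0155), a call lost without siControl replicate 1 or siSpt6 replicate 2 (limma adjusted p = 0.0518 and 0.0520). Of the enzymes that make NADPH, Pgd of the pentose phosphate pathway fell 1.57-fold and malic enzyme Me1 1.46-fold (limma adjusted p = 0.0153 and 0.0188). Idh1 (named after its value was seen) went the other way. It was higher on every siSpt6 array than on any siControl array but missed the threshold (log2 difference 0.39, SE 0.12, limma adjusted p = 0.0776). G6pdx had no probe. Me1 missed the threshold without any 1 of 4 arrays, siControl replicates 2 and 3 and siSpt6 replicates 1 and 3 (limma adjusted p up to 0.0594). Aasdhppt, which attaches the pantetheine arm of fatty acid synthase, fell 1.45-fold and was named after its value was seen. Leaving out any single array but siControl replicate 3 ended that call (limma adjusted p up to 0.103), as did quantile normalization (limma adjusted p = 0.0660). Cbr4, a reductase subunit of the separate mitochondrial synthase, rose 1.67-fold from 283 ± 8.64 to 474 ± 33.4 (limma adjusted p = 0.00732). Acss2, which makes acetyl-CoA from acetate, read 63.2 to 82.4 in siControl and 73.5 to 80.9 in siSpt6 (limma adjusted p = 0.894), and Acacb, the mitochondrial carboxylase, had a difference of 0.27 (limma adjusted p = 0.355). The falls in this list numbered 2 without any 1 of 5 arrays, siControl replicates 1 and 2 and siSpt6 replicates 1, 2 and 3.

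Elongation and desaturation genes outside the 10 showed 0 falls and 0 rises among 18 tested by limma, against 9.65% and 7.40% of all genes. At an unadjusted p under 0.05 there were 3 and 0. Their median of -0.05 turned to 0.06 after quantile and cyclic loess normalization. Cyclic loess called 2 of them lower and median centring 3. Elovl5, a bright elongase of polyunsaturated chains, read 1180.3, 1063 and 1248 in siControl and 1038, 912 and 1205 in siSpt6, overlapping groups with a difference of -0.15 (SE 0.14).

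Among genes that assemble glycerolipids, the longest of the 7 lists, 11 of 37 fell (29.7% against 9.65% of all genes) and 1 rose (2.70% against 7.40%), with a median of -0.17. Without siControl replicate 1, siControl replicate 3 or siSpt6 replicate 2 there were 6 falls, and without siSpt6 replicate 1 there were 7. Lpin1, the phosphatidate phosphatase that makes diacylglycerol for Dgat2, read 72.5, 73.8 and 74.2 in siControl and 36.6, 34.8 and 44.1 in siSpt6, a 1.92-fold fall (log2 difference -0.94, SE 0.13, limma adjusted p = 0.00510). Agpat5, an acyltransferase that makes phosphatidate, fell 1.74-fold from 499.6 ± 27.4 to 287 ± 13.6 (limma adjusted p = 0.00558), and Pcyt2, which controls phosphatidylethanolamine synthesis, fell 1.77-fold from 501 ± 5.17 to 284 ± 33.6 (limma adjusted p = 0.00754). These 3 genes kept their calls when any 1 array was left out.

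By enzyme family, a grouping made after the values were seen, 4 of 5 lysophosphatidate acyltransferases fell, where 9.65% of all genes did. The log2 differences were -0.53 for Agpat2, -0.73 for Agpat3, -0.57 for Agpat4 and -0.80 for Agpat5. Agpat1 was dim and not called (0.17). Other families grouped this way had fewer falls, with 0 among 5 AMPK subunits, 4 long chain acyl-CoA synthetases and 4 perilipins tested. The calls of Agpat2 and Agpat4 were lost when siControl replicate 3 or siSpt6 replicate 1 or 2 was left out, and that of Agpat2 also without siControl replicate 1 or 2 (limma adjusted p up to 0.0763 for Agpat2 and 0.0520 for Agpat4). The glycerol-3-phosphate acyltransferases, which start the pathway, moved both ways. Gpat3 rose 2.13-fold, reading 26.6, 25.8 and 31.2 in siControl and 65.0, 51.2 and 61.8 in siSpt6 (log2 difference 1.09, SE 0.15, limma adjusted p = 0.00462). Gpat4 fell 1.63-fold from 218 ± 9.07 to 135 ± 20.5 (limma adjusted p = 0.0201, and up to 0.0653 without any 1 siControl array), Gpat2 fell from 8.48 ± 0.438 to 4.96 ± 0.517 at the dim end, and Gpam was dim and overlapped. Of 3 lipins, Lpin2 and Lpin3 were not called. The other falls in the list were Lpcat1, Gpd1 and Chpt1 (log2 differences -0.97, -0.73 and -0.42), with limma adjusted p = 0.0258, 0.0213 and 0.0462. Their calls went when single arrays were left out: Lpcat1 with siControl replicate 1 or any siSpt6 array, Gpd1 with siControl replicate 1 or 3 or siSpt6 replicate 2, and Chpt1 with any array (limma adjusted p up to 0.0736, 0.0686 and 0.122).

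Of 18 lipid droplet and lipolysis genes, which store and release fatty acids, 1 rose and 1 fell (5.56% each, against 7.40% and 9.65% of all genes). Their median was 0.02 (-0.03 with median centring), and 2 fell without siSpt6 replicate 3. Plin3, a droplet coat protein also found in the cytosol, rose 2.14-fold from 165 ± 37.3 to 347 ± 28.2 (limma adjusted p = 0.0111). Hilpda, an inhibitor of the lipase ATGL, fell 1.82-fold from 179 ± 17.9 to 98.6 ± 12.4 (limma adjusted p = 0.00933). Plin2, the droplet coat whose level usually follows stored lipid, read 134, 137 and 159 in siControl and 148, 143 and 184 in siSpt6, a difference of 0.14 (SE 0.15) with overlapping groups.

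Among 21 genes of fatty acid uptake, binding and activation 2 fell (9.52%, near the 9.65% of all genes) and 0 rose (against 7.40% of all genes), with a median of -0.11. At an unadjusted p under 0.05 (limma) 5 fell and 2 rose. Fabp5, the fatty acid binding protein of lymphoid and epithelial cells, fell 2.50-fold, from 35.3, 41.4 and 43.0 to 15.3, 16.0 and 16.5 (log2 difference -1.32, SE 0.12, limma adjusted p = 0.00150), a size within the range of the 10 genes. Dbi, the acyl-CoA binding protein, fell 1.38-fold. Leaving out any single array ended that call (limma adjusted p up to 0.128), and so did quantile and cyclic loess normalization (limma adjusted p = 0.454 and 0.331). The falls numbered 1 without any 1 array but siControl replicate 3.

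Fatty acid oxidation, the reverse pathway, had 4 rises and 4 falls among 26 genes (15.4% each, against 7.40% and 9.65% of all genes) and a median of 0.29, and 13 of the 26 were higher on every siSpt6 array than on any siControl array (16.8% of all genes tested). Cpt1a, which admits long chains to mitochondria and is inhibited by malonyl-CoA, read 54.2, 55.8 and 42.5 in siControl and 87.8, 88.5 and 104 in siSpt6, a 1.85-fold rise (log2 difference 0.88, SE 0.15, limma adjusted p = 0.0106). The other rises were Decr1 (1.51-fold), Etfdh (1.40-fold) and Acox3 (1.62-fold, named after its value was seen). Each lost its call in fits with 1 array left out (limma adjusted p up to 0.0977, 0.0936 and 0.111). The array left out was any for Etfdh, any but siSpt6 replicate 1 for Decr1 and any but siSpt6 replicate 2 for Acox3. Hadh and Acaa2, enzymes of the last steps of the cycle, fell 1.68-fold and 1.79-fold (limma adjusted p = 0.00761 and 0.0120). Acad9, better known for assembling respiratory complex I, fell 1.64-fold (limma adjusted p = 0.0152, and up to 0.0533 without siControl replicate 1 or 2 or siSpt6 replicate 2). Crat fell narrowly (log2 difference -0.42, named after its value was seen), and whichever array was left out the call went (limma adjusted p up to 0.137). The rises numbered 1 or 2 whichever array was left out, and the falls 2 without siControl replicate 1 or 2 or siSpt6 replicate 2.

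**Figure D3:**
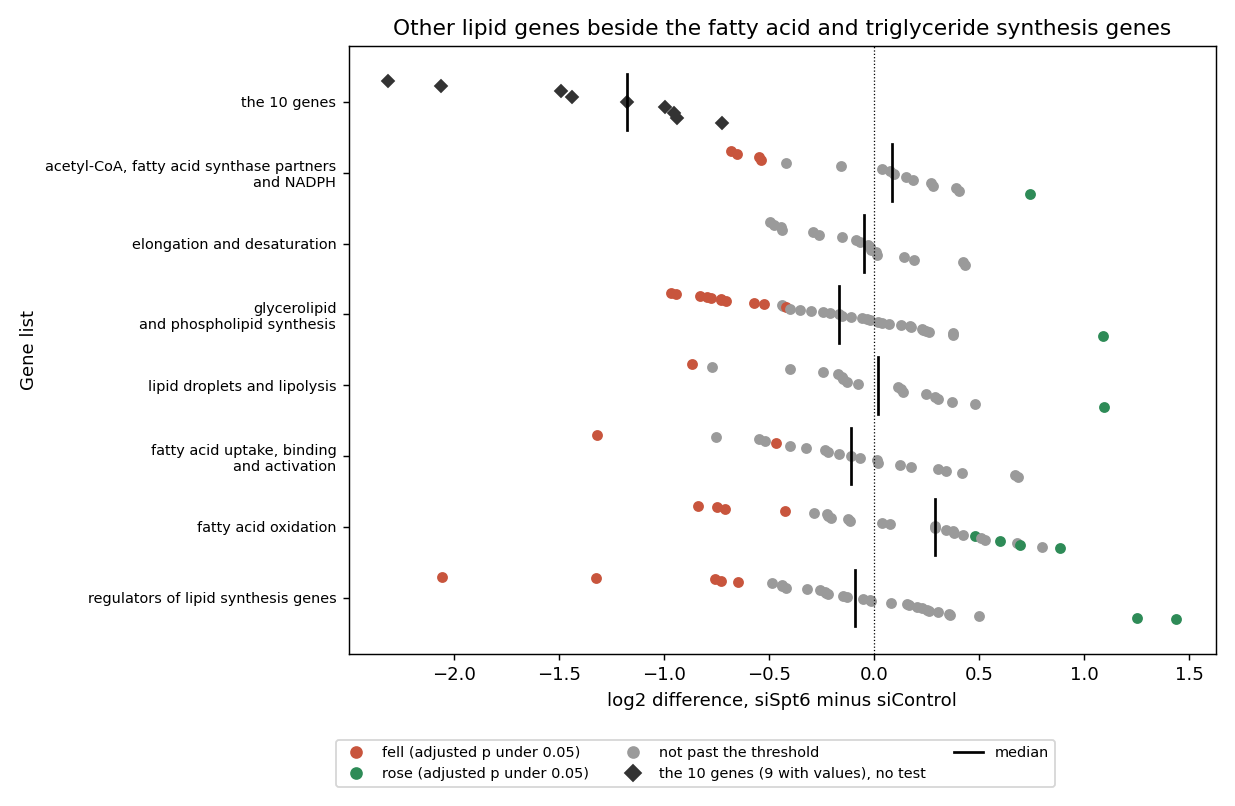
Log2 difference of siSpt6 minus siControl, 1 point per tested gene, for the 10 genes (9 with values, black diamonds, no test) and 7 lists of other lipid genes; red points fell, green points rose, grey points missed the threshold, and black lines are medians. The 9 genes lie between -2.31 and -0.72, while the medians of the 7 lists lie between -0.17 and 0.29.

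Of 32 regulators of these genes 5 fell and 2 rose (15.6% and 6.25%, against 9.65% and 7.40% of all genes), with a median of -0.09. Srebf1, which encodes SREBP1, the main activator of fatty acid synthesis genes, read 158, 161 and 213 in siControl and 147, 127 and 149 in siSpt6, a difference of -0.32 (SE 0.16) that missed the threshold (limma adjusted p = 0.230). Srebf2, which encodes the sterol-directed SREBP2, read 265, 261 and 334 against 152, 148 and 211 and fell 1.69-fold (log2 difference -0.76, SE 0.18, limma adjusted p = 0.0349). That call was lost without any 1 of 5 arrays, all but siSpt6 replicate 3 (limma adjusted p up to 0.103). Scap, the escort that carries SREBP to the Golgi, had a difference of -0.44 (SE 0.14, limma adjusted p = 0.0850) and passed with bright probes only (0.0257) and with the trend and robust options (0.0302).

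The pair of Insig genes, whose products hold SCAP in the endoplasmic reticulum, changed in opposite directions. Insig1, itself a target of SREBP, read 375, 341 and 317 in siControl and 166, 144 and 108 in siSpt6, a 2.51-fold fall (log2 difference -1.32, SE 0.18, limma adjusted p = 0.00487). Insig2 read 119, 148 and 118 in siControl and 357, 321 and 361 in siSpt6, a 2.71-fold rise (log2 difference 1.44, SE 0.14, limma adjusted p = 0.00159). Neither pair of groups overlapped, and both calls were kept when any 1 array was left out and in every other setting tried.

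Nr1h3, the oxysterol receptor LXR-alpha that switches on Srebf1 in liver, rose 2.38-fold from dim values of 5.71, 6.22 and 6.48 to 14.9, 13.9 and 15.1 (limma adjusted p = 0.00135), while Nr1h2 (LXR-beta) had a difference of 0.36 (SE 0.11, limma adjusted p = 0.0745). Nr1h2 passed after quantile normalization (limma adjusted p = 0.0449), with bright probes only (0.0228) and with the trend and robust options (0.0440). Mlxipl, the carbohydrate-responsive activator ChREBP, had one of -0.23 (limma adjusted p = 0.227). Trib3, a pseudokinase reported to promote degradation of acetyl-CoA carboxylase protein, fell 4.17-fold from 202 ± 21.0 to 48.3 ± 2.87 (limma adjusted p = 0.000568). Ppargc1b, a coactivator of SREBP1, fell 1.66-fold from 128 ± 1.44 to 77.3 ± 3.76 (limma adjusted p = 0.00642). Nfyb, a subunit of the CCAAT-binding factor NF-Y, fell 1.57-fold from 372 ± 10.97 to 238 ± 6.70 (limma adjusted p = 0.00878; named after its value was seen), while Nfya and Nfyc were not called.

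**Figure D4:**
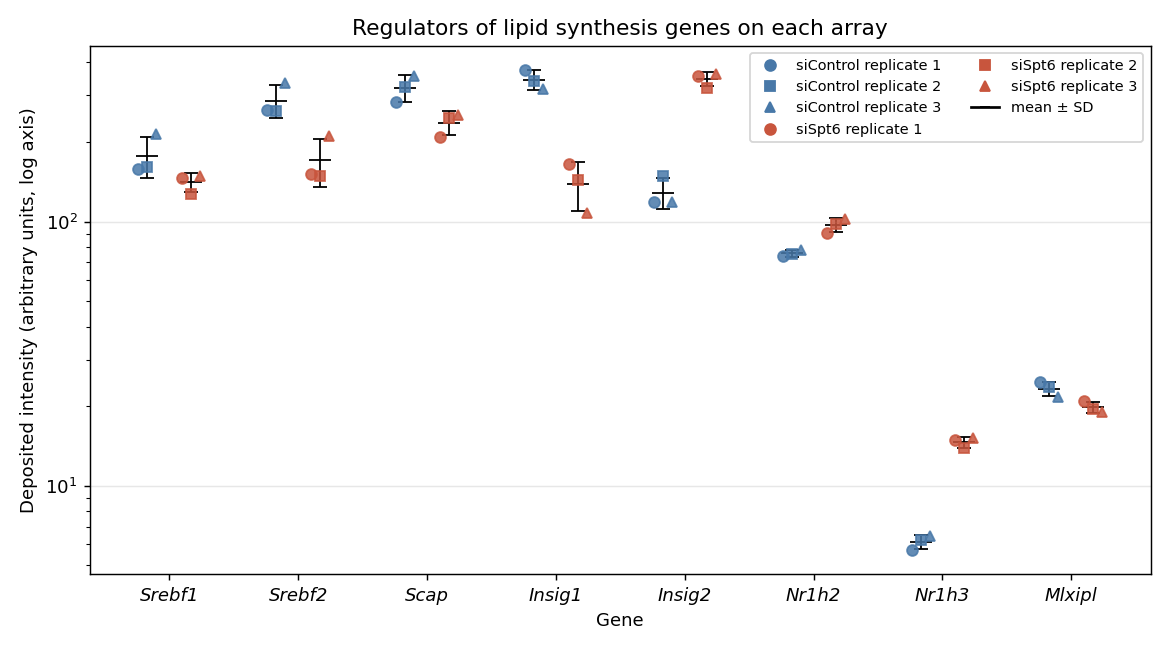
Deposited intensity (arbitrary units, log axis) of 8 regulators of lipid synthesis genes on each of 6 arrays, siControl in blue and siSpt6 in red, with black bars for the mean ± SD of 3 arrays. Insig1 is lower and Insig2 higher on all siSpt6 arrays, and Nr1h3 is higher from a dim level.

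Outside the lipid lists, the 5 genes whose 6 array values, each less the siControl mean, lay nearest to those of Fasn were Yars, a tyrosyl-tRNA synthetase, Lgals9, a galectin, Fam185a, the transcription factor gene Tox and the ribosomal protein gene Rpl30 (Euclidean distances 0.21 to 0.25 log2 units, among 14404 genes with values on all 6 arrays). Their log2 differences ran from -1.27 to -1.15. Within the set, Acly was nearest to Fasn at 0.46, the 101st nearest of those genes, and Fads1 next at 0.49. Mfsd2a was farthest at 2.08. The distance mostly measures how close the group difference is to that of Fasn, and 2 groups of 3 arrays cannot separate genes that share a difference of this size.

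Adipocyte markers were examined because the set includes genes that are abundant in fat. Of 7 markers 6 had a probe and 5 could be tested, and 5 of the 6 lay below the array median. Their summed intensity was 142 to 154 in siControl and 68.5 to 97.0 in siSpt6. Adipoq, the adiponectin gene and the brightest of them, read 96.8, 83.3 and 83.6 in siControl and 27.6, 37.3 and 42.4 in siSpt6 and was the 1 marker called (log2 difference -1.32, SE 0.18, limma adjusted p = 0.00517). Of the other markers, Lep had a value on 3 arrays, each under 2 units. Over the 6 arrays Fabp4 read 2.85 to 9.69 (log2 difference -0.75) and Cidec 12.6 to 32.6 (-0.77). Plin1 read 11.9 to 17.8 (-0.15) and Retn 6.68 to 11.3 (0.14). No marker was listed at 0, since the deposited values hold none, and the part of this marker list in the lipid results was not tested.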

How the data were processed

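The authors deposited 1 intensity value for each probe on each array (linear, arbitrary units). Per the labels' protocols, total RNA (RNeasy) was amplified, coupled to Cy5 and read on 1-colour TORAY arrays; the sources used here give no background correction, normalization or probe positions. Between 4.69% and 8.29% of probes were blank, which was treated as missing. Probes were named from the platform table, with symbols updated through RefSeq (GRCm38.p6): 12622 current and 3947 older symbols. Values were log2-transformed without a pseudocount. Probes with at least 2 values in each group entered limma 3.58.1 (R 4.3.3; lmFit, eBayes, two-sided, group as the only term) with Benjamini-Hochberg adjustment over all 21584 tested probes; 16.3% passed 0.05. Genes use their brightest probe. Fold changes compare geometric means. Named genes are the 10, Supt6, 8 regulators and up to 3 rises and 3 falls per list with the smallest adjusted p; others are marked in the text. The members, lists and rules were chosen with earlier results of these data known. The fit was tested on simulated data. Alternatives changed the normalization, centring, pseudocount, filters, variance model, array weights, probe summary, replicate block and the arrays included.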

Additional observations from a re-analysis of the deposited data

How the results depend on the processing

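All 9 testable genes of the set were lower in siSpt6 in each of the 16 alternative settings that kept their probe (Dgat2 is left out with bright probes only). No named gene changed direction: of 143 values recomputed for the 9 genes, 127 kept their side of the threshold, 11 lost it and 5 gained it, and of 666 for 42 other genes, 575, 83 and 8. The number of the 10 genes called lower was 6 after quantile normalization, 6 after cyclic loess, 9 with a pseudocount of 2.66 and 6 to 9 with 1 array left out. Acaca gained its call with bright probes only (adjusted p = 0.0259), the trend and robust options (0.0344) and the pseudocount (0.0495). Falls among the other lipid genes numbered 27, and 16 to 22 with 1 array left out. They numbered 34 with bright probes only or median centring and 35 with trend and robust options. Rises numbered 9, 6 to 7 with 1 array left out, 17 with bright probes only and 16 with trend and robust options. Over all probes 3525 changed, and 2099 to 2522 with 1 array left out.

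Replicate numbers are shared by the groups, but only 2 of 3 same-numbered pairs had deviations from the group means correlated above 0.1 (r = 0.35, 0.076 and 0.26 over 20336 probes). The main fit therefore left the pairing out. Each array nevertheless correlated best with its own number, so whether the pairs are real is not settled. With the replicate block 3594 probes changed, 9 of the 10 genes were called lower, and 26 other lipid genes fell and 10 rose. Under it Acaca and Scap gained a call (adjusted p = 0.0207 and 0.0471). With 3 arrays a group and no measure of signal over background, dim genes such as Elovl6 have no stated detection limit.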
